A study of Mus musculus with 2 samples.

Results

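Aqp4, Kcnj10, Slc4a4 and Slc12a2 are 4 genes of water and ion transport that are tied to the swelling of astrocytes in the injured brain, and their chromatin accessibility was measured by scATAC-seq in sham and stroke mouse brains. They were taken by name, 4 of 31690 genes counted here, by a rule that used no measured value, though with earlier results of these data known. In this assay the transposase Tn5 cuts open chromatin, and each sequenced fragment carries the barcode of the nucleus it came from. The stroke library came from young adult male wild-type C57BL/6J mice whose middle cerebral artery was blocked with a filament and then reperfused (MCAO/R), and the sham library from mice of the same strain and sex that underwent sham surgery. Both were taken at 48 h and each pooled tissue of 4 mice, whole brains for sham and the ipsilateral hemispheres for stroke, in both cases without olfactory bulbs and cerebellum. Each condition was therefore 1 library, so no difference between sham and stroke had a replicate, none was tested, and surgery, dissection and library cannot be told apart.

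Astrocytes take up water and ions at their endfeet around blood vessels and at synapses. Aqp4 encodes the water channel aquaporin-4, which is concentrated in the endfoot membrane by a complex of dystrophin-associated proteins and through which water enters the brain in cytotoxic edema. Kcnj10 encodes the inward rectifier Kir4.1, the main potassium channel of astrocytes and also a channel of oligodendrocytes. Slc4a4 encodes the sodium bicarbonate cotransporter NBCe1, and Slc12a2 encodes the sodium, potassium and chloride cotransporter NKCC1, which loads cells with chloride and is blocked by bumetanide.

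The accessibility of a gene was the number of fragments touching its body or the 2 kb before its start, added up within each class of nuclei and scaled to the fragments of that class as counts per 1000000 fragments (CPM). Intervals are exact and hold 95%, from the Poisson distribution for counts and ratios of counts and from the binomial one for shares, and they reflect counting error alone. In mm10, Aqp4 lies on chromosome 18 from 15389496 to 15410982 on the minus strand, and 9896 bp of its counting window overlap the antisense gene AC133525.2, from which unstranded fragments cannot be told apart. Slc12a2 lies on chromosome 18 from 57878678 to 57946821, Kcnj10 on chromosome 1 from 172341210 to 172374085 and Slc4a4 on chromosome 5 from 88886818 to 89239653, all on the plus strand. No other annotated gene overlapped the windows of these 3.

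The sham library held 76959104 fragments and the stroke library 96465679. Over 20% of fragments lay in peaks in 6817 of 6979 called sham barcodes (97.7%) and in 5054 of 8740 called stroke barcodes (57.8%), and these nuclei were kept, with medians of 10353 and 9898 fragments. The libraries shared 42 of the kept barcodes. Nuclei were gated from marker genes that did not include the 4 genes. The astrocyte-like gate held 309 sham nuclei and 479 stroke nuclei, with medians of 7201 and 8192 fragments. Of the defining astrocyte genes, Slc1a3, the glutamate transporter GLAST, was 8.64 times as accessible in astrocyte-like as in other gated nuclei in sham and 6.23 times in stroke, and Gja1, which encodes connexin 43, 9.33 and 6.65 times. Sox9, a transcription factor of astrocytes, had 5.27 and 4.46 times, and Aldh1l1, a folate enzyme, 4.11 and 3.90 times. These genes were markers of the gate, which fixed their excess, while in gates on the odd- or the even-numbered markers alone the markers held out were at 3.05 and 2.97 times the level of all nuclei. The 24 astrocyte markers of the gate summed to 3950 CPM in astrocyte-like nuclei of sham and 3530 CPM in those of stroke. Glutamatergic neuron markers summed to 661 and 610 CPM there and GABAergic ones to 602 and 613 CPM, against 1240 and 1050 CPM and 1030 and 942 CPM over all kept nuclei. Mural and leptomeningeal markers summed to 309 and 332 CPM, above the 212 and 231 CPM of all kept nuclei, ependymal ones to 403 and 446 CPM against 367 and 390 CPM, and OPC ones to 460 and 413 CPM against 430 and 460 CPM. Markers of other classes were thus not at 0 in the astrocyte-like gate, and the part of admixed fragments in the values below was not tested.

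Counted over the gene window and among the gated classes, Aqp4 was the most astrocyte-restricted of the 4 genes in both libraries. Its accessibility in astrocyte-like nuclei was 60.2 CPM in sham (51.3 to 70.2, 163 fragments) and 62.8 CPM in stroke (55.5 to 70.8, 268 fragments). In glutamatergic neuron-like nuclei it was 2.66 CPM in sham and 3.75 CPM in stroke, and in GABAergic neuron-like nuclei 3.96 and 4.72 CPM. These neuronal levels are the background against which the astrocyte values stand. The next highest named class was OPC-like, with 17.1 CPM in sham (7.83 to 32.5) and 32.3 CPM in stroke (18.8 to 51.7), whose intervals did not reach those of astrocyte-like nuclei. Oligodendrocyte-like nuclei had 15.4 and 6.34 CPM from 11 and 4 fragments. Myeloid-like nuclei had no Aqp4 fragment in sham, where only 17 nuclei were gated and the interval reached 32.3 CPM, and 10.8 CPM in stroke (6.99 to 15.9) from 181 nuclei. For ratios to all other gated nuclei, the fragments of those nuclei were pooled, and most came from neuron-like nuclei. Sham had 1801 glutamatergic neuron-like, 1495 GABAergic neuron-like and 17 myeloid-like nuclei, and stroke had 691, 852 and 181. Such ratios are therefore weighted mostly to neurons, and the make-up of the pool differed between the libraries. Against this pool, Aqp4 was 16.7-fold higher in astrocyte-like nuclei of sham (13.3 to 21.0) and 10.9-fold in stroke (8.81 to 13.6). Only 0.111% of 26030 genes in sham and 0.116% of 24994 genes in stroke had a ratio as high or higher. Ungated nuclei, 41.5% of those kept in sham and 48.8% in stroke, enter none of these ratios. They held 193 Aqp4 fragments in sham (6.76 CPM) and 250 in stroke (9.40 CPM). No ependymal class was kept, so Aqp4 was not compared with one. In a promoter window from 2 kb before to 500 bp after the outer start, where Aqp4 had 8 sham and 4 stroke fragments in astrocyte-like nuclei, the ratios were 11.3 (3.96 to 30.9) and 1.47 (0.352 to 4.67).

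Kcnj10 was highest in astrocyte-like nuclei and also accessible along the oligodendrocyte lineage and in myeloid-like nuclei. In astrocyte-like nuclei it reached 233 CPM in sham (216 to 252, 632 fragments) and 184 CPM in stroke (171 to 197, 784 fragments). In OPC-like nuclei it reached 147 CPM in sham (116 to 183) and 135 CPM in stroke (105 to 170). In oligodendrocyte-like nuclei it was 88.2 CPM in sham (67.8 to 113) and 157 CPM in stroke (127 to 191). The stroke order of astrocyte-like, oligodendrocyte-like and OPC-like nuclei was therefore not separated by the intervals, which overlapped between neighbours, whereas in sham the astrocyte-like level stood apart. Myeloid-like nuclei had 87.7 CPM in sham (42.1 to 161) from 10 fragments and 64.4 CPM in stroke (54.5 to 75.6) from 149. Neuron-like nuclei had between 20.6 and 26.0 CPM in either library. Kcnj10 was 8.54-fold higher in astrocyte-like than in other gated nuclei of sham (7.74 to 9.42) and 5.37-fold in stroke (4.85 to 5.94). At or above these ratios were 0.622% and 0.848% of genes. The pool of other gated nuclei had 27.3 CPM in sham and 34.2 CPM in stroke. The lower stroke ratio thus did not rest on the astrocyte level alone.

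Slc4a4 was open in astrocytes and in neurons, and in other classes as well. It had 456 CPM in astrocyte-like nuclei of sham (431 to 482) and 458 CPM in stroke (438 to 479), but also 352 CPM in GABAergic neuron-like nuclei of sham (344 to 361) and 268 CPM in those of stroke (257 to 279). Glutamatergic neuron-like nuclei had 176 and 145 CPM, OPC-like nuclei 205 and 178 CPM, and mural and leptomeningeal-like nuclei 202 and 194 CPM. Over the gene window the astrocyte excess was 1.84-fold in sham (1.74 to 1.96) and 2.32-fold in stroke (2.20 to 2.45). In the promoter window of the outer start it was 8.81-fold (6.39 to 12) and 5.05-fold (3.48 to 7.34), so its size depended on the window. The astrocyte level was the same in both libraries to within its interval. The pool of other gated nuclei had 247 CPM in sham and 197 CPM in stroke. Neuron-like nuclei were lower in stroke and the make-up of the pool also differed. The part of each in the larger stroke ratio was not tested.

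Slc12a2 showed no excess in astrocytes when counted over its gene window. It had 45.8 CPM in astrocyte-like nuclei of sham (38.1 to 54.6, 124 fragments) and 36.3 CPM in stroke (30.8 to 42.5, 155 fragments), against 45.8 and 43.1 CPM in all other gated nuclei. The ratio was 1.0 in sham (0.827 to 1.20) and 0.843 in stroke (0.707 to 1.0). In the promoter window it was 1.47 (1.17 to 1.83) and 1.31 (1.04 to 1.63), so the reading depended on the window. Over the gene window its highest level was in oligodendrocyte-like nuclei, with 98.0 CPM in sham (76.4 to 124) and 82.4 CPM in stroke (61.5 to 108). Both intervals lay above those of astrocyte-like and of neuron-like nuclei. Within 500 bp on either side of its start this was not so. Oligodendrocyte-like and OPC-like nuclei, pooled, had 17.7 CPM there in sham (11.1 to 26.9) and 19.0 CPM in stroke (11.9 to 28.8). Astrocyte-like nuclei had 28.8 CPM (22.8 to 35.9) and 20.6 CPM (16.6 to 25.4).

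**Figure D1:**
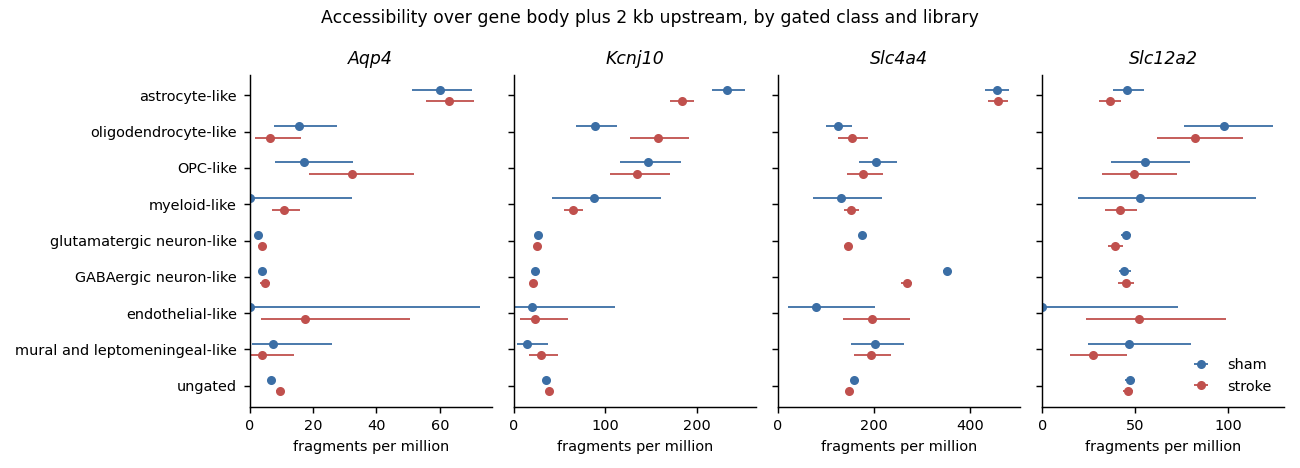
Accessibility of each gene in CPM (x axis) by gated class (y axis) in the sham (blue) and stroke (red) library, with exact 95% Poisson intervals as bars. Counted over the gene windows, Aqp4 and Kcnj10 were highest in astrocyte-like nuclei and Slc12a2 in oligodendrocyte-like nuclei. Slc4a4 was also high in GABAergic neuron-like nuclei.

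Over all genes, 21.1% in sham and 18.0% in stroke were at least 1.5-fold higher in astrocyte-like than in other gated nuclei, and Aqp4, Kcnj10 and Slc4a4 passed that fold in both libraries. Scaled to promoter fragments, Slc4a4 no longer passed it in sham, at 1.3 (1.22 to 1.38). Per kb of window the order in astrocyte-like nuclei was Kcnj10 (6.69 CPM per kb in sham and 5.27 in stroke), Aqp4 (2.56 and 2.68), Slc4a4 (1.28 and 1.29) and Slc12a2 (0.653 and 0.518), the same in both libraries. The longest gene, Slc4a4, with a window of 354.8 kb, therefore had the highest count but not the highest density. At least 1 fragment of Aqp4 was found in 35.6% of astrocyte-like nuclei in sham (30.3 to 41.2) and in 39.5% in stroke (35.1 to 44.0), against 3.05% and 4.20% of glutamatergic neuron-like nuclei. With nuclei thinned to 5000 fragments, which left out 123 sham and 138 stroke astrocyte-like nuclei, the astrocyte shares were 25.3% and 29.9% and the glutamatergic ones 1.17% and 1.68%. Kcnj10 was found in 68.3% and 68.9% of astrocyte-like nuclei as counted and in 65.1% (57.7 to 71.9) and 56.9% (51.4 to 62.2) after thinning. Thinning left out 173 sham and 38 stroke glutamatergic neuron-like nuclei.

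The genes whose levels over the 8 classes and both libraries (16 points, log2 of CPM plus 1) followed each member most closely are given as a description, since the points share libraries and depth. For Aqp4 they were its overlapping antisense gene AC133525.2 (Pearson r = 0.98), Platr26 (0.92) and Phka1 (0.92), for Kcnj10 they were Gm4221 (0.93), Dbi (0.93) and Tmed10 (0.92), for Slc4a4 they were Lyrm4 (0.89), Ubac1 (0.82) and Bmpr1a (0.81), and for Slc12a2 they were Socs4 (0.98), Inip (0.97) and Mcm4 (0.97). Among the 4 genes themselves, r was 0.59 between Aqp4 and Kcnj10, 0.65 between Aqp4 and Slc4a4 and 0.28 between Kcnj10 and Slc4a4, and Slc12a2 had 0.47 with Aqp4, 0.35 with Kcnj10 and 0.39 with Slc4a4. Classes of few nuclei carry the same weight as large ones in these values. Slc12a2 had 0 fragments in the 30 endothelial-like nuclei of sham and 27.2 to 98.0 CPM at every other point. That empty point therefore weighs heavily in its r. Aqp4 had 0 fragments in endothelial-like and in myeloid-like nuclei of sham.

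Between sham and stroke, the accessibility of the water channel gene in astrocyte-like nuclei did not differ beyond counting error. The stroke over sham ratio of Aqp4 was 1.04 (0.856 to 1.28), so that a difference of 1.5-fold in either direction lay outside its counting interval. Slc4a4 had a ratio of 1.01 (0.936 to 1.08), but in the promoter window of its outer start one of 0.586 (0.406 to 0.846). That window gave 0.318 for Aqp4 (0.0700 to 1.19), from its 8 and 4 fragments. Kcnj10 was lower in stroke, at 0.788 (0.709 to 0.876), and Slc12a2 had a ratio of 0.794 (0.623 to 1.01) whose interval reached 1. In their promoter windows Kcnj10 had 0.860 (0.653 to 1.14), an interval that held 1, and Slc12a2 had 0.728 (0.542 to 0.978), one that did not. The Kcnj10 interval also held 1 when nuclei were gated on the odd-numbered marker genes alone. That of Slc12a2 lay below 1 with gates on the odd- or the even-numbered marker genes, with neighbours found on components 2 to 10 of the index, and with both ends of a fragment counted separately, which narrows the interval. None of the 4 genes passed 1.5-fold over the gene window. Of 18430 genes with at least 50 fragments over both libraries, 9.19% were at least 1.5-fold higher in stroke and 6.23% at least 1.5-fold lower. The median log2 ratio over those genes was -0.04, and 80.7% of them had a ratio at or above that of Kcnj10. Astrocyte-like nuclei of stroke also had fewer fragments in peaks, with a median of 50.9% against 55.2% in sham. Summed over all promoter windows, counts came to 27.5% of their fragments against 30.9% in sham. A fragment counted once in each window it touched. The part of these differences in the Kcnj10 value was not tested. Scaled to promoter fragments, the median of all genes moved to 0.13, Kcnj10 to -0.17 and Slc4a4 to 0.18 on the log2 scale, and of all genes past 1.5-fold the share that was higher in stroke moved from 59.6% to 84.6%.

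**Figure D2:**
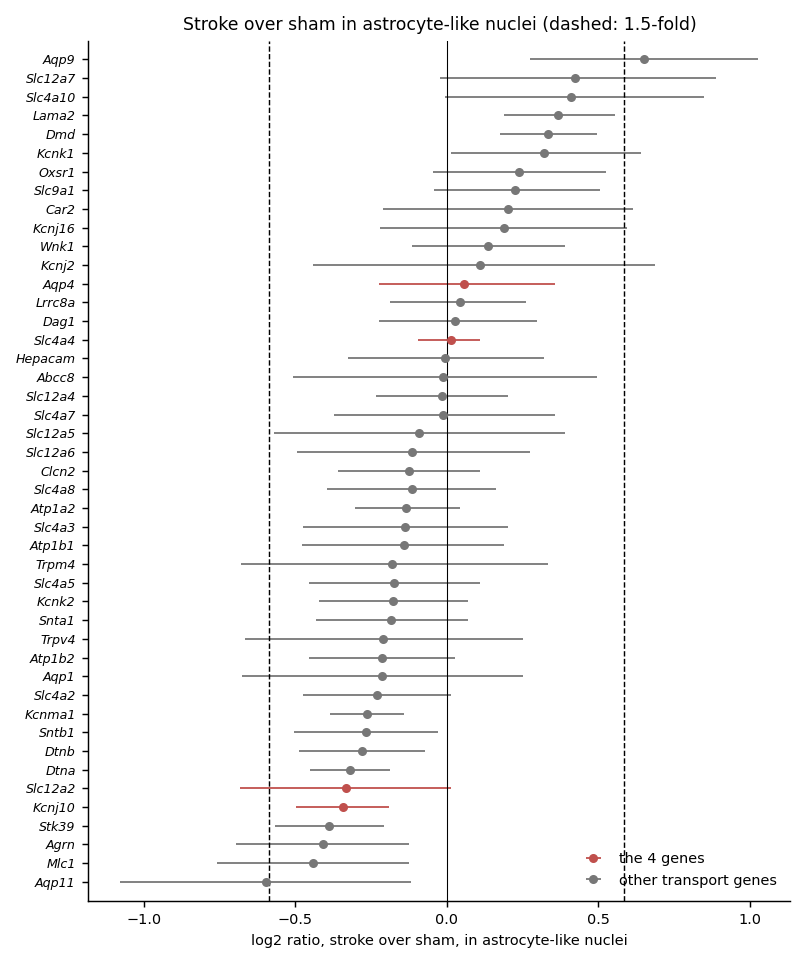
The log2 ratio of accessibility, stroke over sham, in astrocyte-like nuclei (x axis) for the 4 genes (red) and other transport genes of the list (grey), ordered by the ratio, with exact 95% counting intervals as bars and 1.5-fold as dashed lines. The 4 genes lie between the dashed lines, with Kcnj10 at -0.34 and Aqp4 at 0.06, while Aqp9 at 0.65 lies above the upper line and Aqp11 at -0.60 below the lower.

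Summed over all kept nuclei the picture was another one. Aqp4 had 6.92 CPM in sham and 12.2 CPM in stroke, a ratio of 1.76 (1.57 to 1.99), and Kcnj10 had 38.0 and 48.2 CPM, a ratio of 1.27 (1.20 to 1.34). Slc4a4 was lower in stroke over all kept nuclei, at 0.877 (0.855 to 0.899). In such sums more nuclei of a class and more accessibility per nucleus cannot be told apart. Astrocyte-like nuclei were 4.53% of kept nuclei in sham (4.05 to 5.05) and 9.48% in stroke (8.68 to 10.3). Without the minimum of fragments in peaks their shares of called barcodes were 4.40% and 5.15%, so the size of this difference rested on that filter. Over all called barcodes Aqp4 still had 6.94 and 12.4 CPM, a ratio of 1.78 (1.60 to 1.98), whereas the ratio of Kcnj10 was 1.01 (0.961 to 1.06). Among ungated nuclei, which include those that passed more than 1 gate, Aqp4 had 6.76 CPM in sham and 9.40 CPM in stroke. The ratio was 1.39 (1.15 to 1.69).

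In other classes the stroke values differed from sham in few places. Slc4a4 was lower in stroke in GABAergic neuron-like nuclei, with a ratio of 0.761 (0.725 to 0.798), and in glutamatergic neuron-like nuclei, with 0.827 (0.777 to 0.880). Kcnj10 in oligodendrocyte-like nuclei had a ratio of 1.78 (1.28 to 2.48) from 63 sham and 99 stroke fragments in 110 and 124 nuclei, but the value depended on the gate and was below 1 with the odd-numbered markers, at -0.64 on the log2 scale. The 24 astrocyte markers summed to 1220 CPM in oligodendrocyte-like nuclei of sham and 1280 CPM in those of stroke, against 1100 and 1340 CPM over all kept nuclei. The 16 oligodendrocyte markers summed to 1340 and 1350 CPM in oligodendrocyte-like nuclei, against 410 and 452 CPM over all kept nuclei. Slc12a2 had a ratio of 0.871 (0.770 to 0.983) in glutamatergic neuron-like nuclei and 1.02 (0.896 to 1.15) in GABAergic neuron-like nuclei.

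The 42 other genes of edema transport were the anchoring complex of Aqp4, further aquaporins, potassium channels, sodium pump subunits, bicarbonate and proton carriers, chloride cotransporters with their kinases, and volume and cation channels. All 42 had at least 50 fragments in astrocyte-like nuclei. In stroke over sham, 2 were at least 1.5-fold higher, 1 was at least 1.5-fold lower and 39 were neither, and the median log2 ratio was -0.11 against -0.04 for all genes. Aqp9, an aquaglyceroporin that passes glycerol and lactate as well as water, had 31.4 and 49.2 CPM, a ratio of 1.57 (1.21 to 2.04). Aqp11, an aquaporin of intracellular membranes, had 27.3 and 18.1 CPM, a ratio of 0.661 (0.474 to 0.922). Neither call was stable, since over the 11 other gates, windows and scalings that left each gene at least 50 fragments Aqp9 passed 1.5-fold in 6 and Aqp11 in 7. In its promoter window, with 12 fragments in each library, Aqp9 had -0.65 on the log2 scale. In the list 2 of 42 and 1 of 42 were past 1.5-fold, where 9.19% and 6.23% of all genes were.

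Against other gated nuclei, 16 of the 42 genes in sham and 14 in stroke were at least 1.5-fold higher in astrocyte-like nuclei, and 11 and 8 were at least 1.5-fold lower. Over all genes 21.1% and 18.0% were higher by that fold and 29.6% and 25.1% lower. The list had median ratios of 1.20 and 1.13 against 0.951 and 0.969 for all genes. The highest was Mlc1, whose product sits in astrocyte endfeet and is mutated in megalencephalic leukoencephalopathy, with ratios of 9.44 (7.70 to 11.6) in sham and 7.54 (5.97 to 9.55) in stroke. Slc12a4, the potassium and chloride cotransporter KCC1, followed with 6.43 and 4.95, and Atp1b2, the glial beta subunit of the sodium pump, with 5.86 and 4.74. Aqp4 thus stood above every gene of the list in both libraries, and Kcnj10 below Mlc1 only. At the other end were Slc12a5, the neuronal chloride extruder KCC2, with 0.203 and 0.248, Slc4a10, a neuronal bicarbonate transporter, with 0.251 and 0.344, and Abcc8, the sulfonylurea receptor SUR1, with 0.256 and 0.333. Slc12a2, which loads chloride, lay between these extremes at 1.0 and 0.843.

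**Figure D3:**
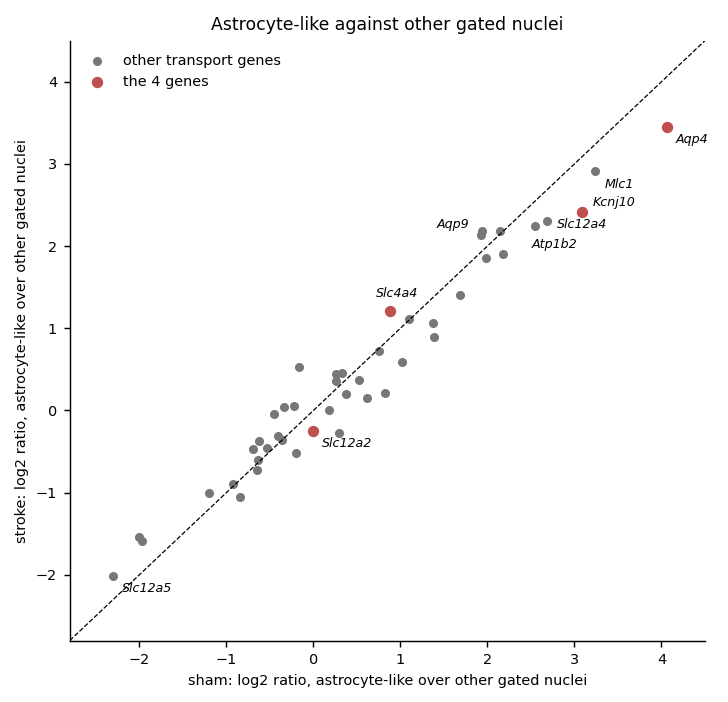
The log2 ratio of accessibility in astrocyte-like over all other gated nuclei in sham (x axis) and in stroke (y axis) for the 4 genes (red) and other transport genes of the list (grey), with equality dashed. Aqp4 is farthest out at 4.06 and 3.45, Kcnj10 follows Mlc1 at 3.09 and 2.42, and Slc12a2 lies at 0.00 and -0.25.

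Within the genes, the fragment ends of astrocyte-like nuclei were placed in bins of 500 bp, and adjoining bins with at least 5 times the even genome level, averaged over both libraries, were joined to open sites. This threshold was passed by 2.54% of all bins of the genome. Because sites were chosen on astrocyte-like nuclei, their excess over neurons is a description. Aqp4 had 7 sites. The main one was not at the gene's annotated outer start, where a window of 500 bp on either side held 2 sham and 1 stroke fragments, but in the intron 5.7 kb downstream of it, 1.5 kb upstream of the inner start of transcript Aqp4-201. That stretch also lies within the antisense gene AC133525.2. This site held 27.3 CPM in sham (74 fragments) and 25.3 CPM in stroke (108 fragments), 42.2 times the neuronal level, and its stroke over sham ratio was 0.927 (0.683 to 1.26). The site over the inner starts, which also holds the start of AC133525.2, had 5.17 CPM in sham from 14 fragments and 9.61 CPM in stroke from 41, a ratio of 1.86 (0.993 to 3.69). A further intron site, 4.0 kb from the outer start and also within AC133525.2, had 5.54 and 9.38 CPM, a ratio of 1.69 (0.915 to 3.30). Both intervals reached 1. Over 19351 open sites of the genome with at least 50 fragments, 12.7% were at least 1.5-fold higher in stroke, 15.0% at least 1.5-fold lower, and the median log2 ratio was -0.14. Slc12a2 had a single site, at its start, with 34.0 CPM in sham and 25.3 CPM in stroke (ratio 0.746, 0.559 to 0.996), and neurons had 22.4 CPM there.

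**Figure D4:**
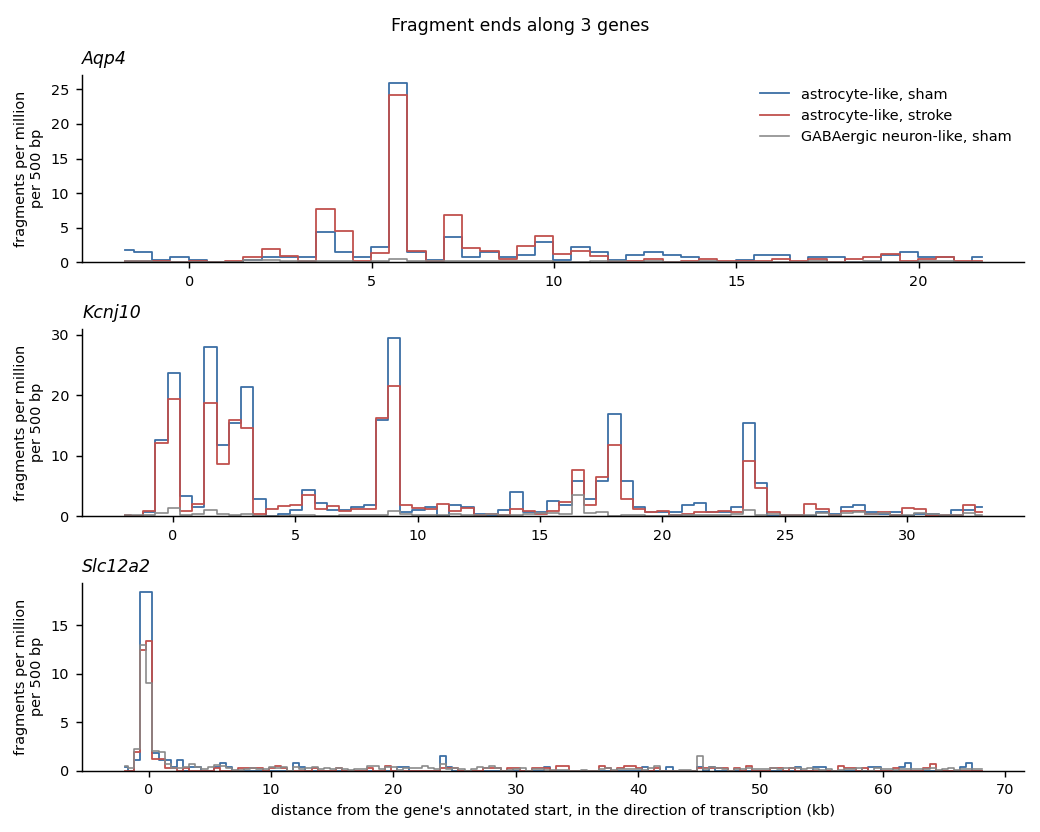
Fragments with an end in each bin of 500 bp, in CPM of the class (y axis), against the distance from the gene's outer annotated start in the direction of transcription (x axis), for astrocyte-like nuclei of sham (blue) and stroke (red) and GABAergic neuron-like nuclei of sham (grey). The main peak of Aqp4 lies near 5.7 kb, Kcnj10 has a peak at its start and several in the intron, and Slc12a2 has a single peak at its start that neurons share.

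Kcnj10 was open from its start onward, with 10 sites that held 95.3% of the fragments with an end in its window in sham and 91.5% in stroke. The site over the start reached 105 CPM in sham (285 fragments) and 80.4 CPM in stroke (343 fragments), a ratio of 0.764 (0.651 to 0.898). Intron sites followed 8.5 kb from the start, with 41.0 and 31.0 CPM, 17.3 kb from it, with 35.1 and 28.1 CPM, and 23.8 kb from it, with 18.5 and 11.3 CPM. Their ratios were 0.755 (0.582 to 0.981), 0.802 (0.608 to 1.06) and 0.610 (0.402 to 0.925). All 5 sites of Kcnj10 with at least 50 fragments had ratios below 1, and 1 of them passed 1.5-fold, where 61.5% of open sites over the genome had a ratio below 1 and 15.0% were lower by 1.5-fold. Oligodendrocyte-like and OPC-like nuclei, pooled, shared the start site, with 39.5 CPM in sham and 44.9 CPM in stroke, and the site at 8.5 kb, with 28.2 and 33.7 CPM. The 250 bases before the start are shown because this promoter lay in the site with the most fragments among the 4 genes (GRCm38.p6, plus strand, chr1:172340960-172341209, from RefSeq). Capitals mark CG dinucleotides, 17 in all, where the median over 32851 RefSeq promoters was 6.
Kcnj10-201: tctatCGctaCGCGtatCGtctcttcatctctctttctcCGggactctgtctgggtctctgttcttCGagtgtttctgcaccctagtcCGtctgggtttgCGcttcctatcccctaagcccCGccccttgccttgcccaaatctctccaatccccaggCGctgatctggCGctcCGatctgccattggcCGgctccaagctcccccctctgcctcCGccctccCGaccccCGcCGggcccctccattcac

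Slc4a4 has several annotated starts, and within 500 bp on either side of a start their order differed between astrocytes and neurons in sham. Around the outer start, of Slc4a4-207, astrocyte-like nuclei had 22.2 CPM in sham (16.9 to 28.5) and 13.4 CPM in stroke (10.1 to 17.3), and GABAergic neuron-like nuclei 3.32 CPM (2.52 to 4.30) and 2.65 CPM (1.68 to 3.97). Around the start of Slc4a4-206, 47.7 kb downstream, the order was the opposite in sham, with 1.85 CPM in astrocyte-like nuclei (0.599 to 4.31), 6.58 CPM in GABAergic (5.43 to 7.92) and 6.81 CPM in glutamatergic neuron-like nuclei (5.79 to 7.96). In stroke the astrocyte-like value there was 5.16 CPM (3.23 to 7.81), from 22 fragments against 5 in sham, and the intervals of astrocytes, GABAergic neurons (4.03 CPM) and glutamatergic neurons (5.63 CPM) overlapped. Neurons were not closed at the outer start. Over the whole open site there, of 3000 bp, GABAergic neuron-like nuclei had 5.65 CPM in sham and 6.22 CPM in stroke. Over the shorter site at Slc4a4-206, of 1000 bp, they had 6.87 and 4.14 CPM. Glutamatergic neuron-like nuclei had 3.04 and 2.32 CPM over the outer site and 6.94 and 6.51 CPM over that at Slc4a4-206. The coding starts near Slc4a4-201 had 1.11 and 0.938 CPM in astrocyte-like nuclei, from 3 and 4 fragments. The 250 bases before both starts (GRCm38.p6, plus strand, chr5:88886568-88886817 and chr5:88934282-88934531) are shown to compare them, with CG dinucleotides in capitals, 33 before the outer start and 3 before that of Slc4a4-206. The GC content was 78.4% and 45.6%, where the median promoter had 52.4%.
Slc4a4-207: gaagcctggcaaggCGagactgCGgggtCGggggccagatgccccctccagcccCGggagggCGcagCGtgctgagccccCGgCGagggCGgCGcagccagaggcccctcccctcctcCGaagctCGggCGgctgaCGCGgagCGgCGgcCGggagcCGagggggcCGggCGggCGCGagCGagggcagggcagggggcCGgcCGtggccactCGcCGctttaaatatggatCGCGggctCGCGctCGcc
Slc4a4-206: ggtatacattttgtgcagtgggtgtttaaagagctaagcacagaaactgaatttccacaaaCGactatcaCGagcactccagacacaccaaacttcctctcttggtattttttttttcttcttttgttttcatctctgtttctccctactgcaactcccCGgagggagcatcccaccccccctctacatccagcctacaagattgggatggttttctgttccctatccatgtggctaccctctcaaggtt

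The introns of Slc4a4 held most of its open sites, 60 in all over the gene, of which 9 had at least 50 fragments. Among these 9, 3 were at least 1.5-fold lower in stroke and 1 was at least 1.5-fold higher, against 15.0% and 12.7% of sites over the genome. The site over the outer start had 28.4 CPM in sham and 17.8 CPM in stroke, a ratio of 0.627 (0.451 to 0.872). The sites 42.7 kb and 201.7 kb downstream of it had ratios of 0.575 (0.407 to 0.811) and 0.542 (0.335 to 0.873). In the other direction, the site at 73.2 kb had 9.60 CPM in sham and 17.8 CPM in stroke, a ratio of 1.86 (1.18 to 3.02). Sites of both directions were also open in neurons. Over both libraries neurons had 7.47 CPM at 73.2 kb, 4.17 CPM at the outer start, 9.80 CPM at 42.7 kb and 2.49 CPM at 201.7 kb. The sites at 89.2 kb and 103.7 kb had ratios of 1.02 (0.682 to 1.55) and 0.973 (0.664 to 1.44). The ratio of 1.01 over the whole gene was therefore a sum over sites with ratios on both sides of 1 and over fragments outside sites, which were 40.5% of the total in sham and 45.4% in stroke.

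**Figure D5:**
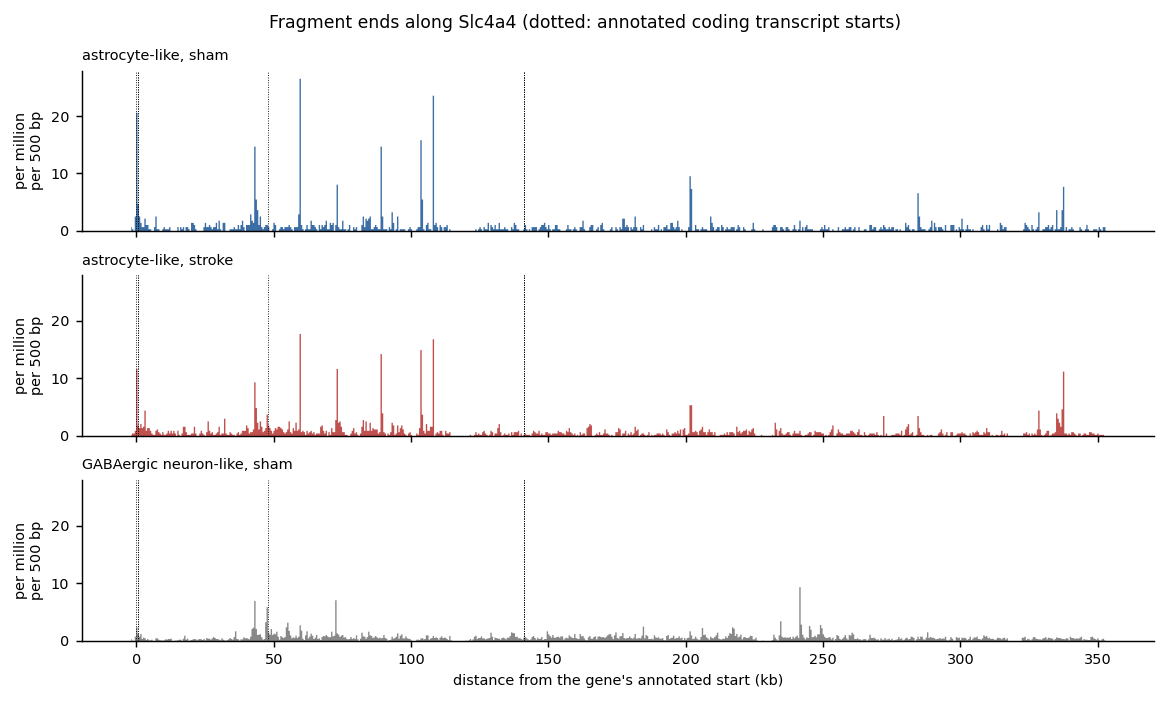
Fragments with an end in each bin of 500 bp along Slc4a4, in CPM of the class (y axis), against the distance from its outer annotated start (x axis), in astrocyte-like nuclei of sham (top) and stroke (middle) and in GABAergic neuron-like nuclei of sham (bottom), with annotated coding starts dotted. Peaks at the outer start and at 59.2, 89.2, 103.7 and 107.9 kb are tall in astrocyte-like nuclei and low or missing in the neuron panel.

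The site at 107.9 kb, at chr5:88994501-88995000 in an intron, had the highest excess of astrocyte-like over neuron-like nuclei among the larger Slc4a4 sites, 42.1-fold over both libraries, with 23.6 CPM in sham and 16.9 CPM in stroke (ratio 0.714, 0.503 to 1.02). Its central 300 bases are shown as an example of an astrocyte-open stretch outside a promoter (GRCm38.p6, plus strand, chr5:88994601-88994900), with its 4 CG dinucleotides in capitals.
Slc4a4 site 35: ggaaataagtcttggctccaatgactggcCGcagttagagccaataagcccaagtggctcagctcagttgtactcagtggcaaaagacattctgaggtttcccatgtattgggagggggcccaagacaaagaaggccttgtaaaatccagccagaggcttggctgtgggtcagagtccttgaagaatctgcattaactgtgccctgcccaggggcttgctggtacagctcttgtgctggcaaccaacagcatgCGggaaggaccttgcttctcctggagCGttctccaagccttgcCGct
Searched on both strands, none of the 4 printed stretches held the AP-1 letters TGANTCA, the NFI letters TTGGCA, the SOX letters AACAAT or the STAT letters TTCCNGGAA. Over all RefSeq promoters, 6.75%, 12.3%, 9.42% and 0.913% of the 250 bases before the start held them, and over the central 300 bases of open sites 7.78%, 17.5%, 7.79% and 1.10%. The absence says only that these letters are not in these windows.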

How the data were processed

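scATAC-seq was measured in 1 sham and 1 stroke library. Cell Ranger ATAC 2.1.0 was run by the authors, with mm10 as the genome, and they deposited for each library a list of fragments with read counts and a table of barcodes with raw counts (read pairs, fragments, fragments in peaks), not normalized. The sham and stroke libraries held 103023027 and 127304829 read pairs.

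Each fragment was counted once, whatever its read count. Genes were taken from GENCODE M21, whose assembly GRCm38 is the same build. Nuclei were barcodes called as cells with over 20% of fragments in peaks. A latent semantic index was built on 5000 bp tiles open in at least 0.5% of nuclei, without the 4 genes, the transport list, the markers and 10000 bp around them. Marker fragments were summed over each nucleus and its nearest neighbours (30 in all) on components 2 to 20, and a class was given at 2 times the level of all nuclei, or 1.3 times for neurons. Nuclei that passed more than 1 gate (293 in sham and 319 in stroke) were left out of the classes as possible doublets and counted as ungated. No doublet caller was run. Of 10 classes listed, 8 were kept, those whose held-out markers were highest in nuclei gated on the alternate markers (astrocytes 3.05 and 2.97 times); ependymal and choroid plexus gates were dropped. This gate was chosen after the files had been seen, from held-out markers and without the 4 genes' values, after a gate on each nucleus's own fragments and a marker-seeded mixture had separated classes less well. The 4 genes, the lists and the marker genes were chosen with earlier results of these data known.

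Since each condition was 1 library, no test was run; a gene counts as past the threshold at 1.5-fold with at least 50 fragments over both libraries. The genes named are the 4, those of the list past 1.5-fold (except 1, which enters the counts but is not reported here), its 3 highest and 3 lowest by astrocyte-like over other gated nuclei, and the 3 genes most like each of the 4. Slc1a3, Gja1, Sox9 and Aldh1l1 are given as astrocyte markers of the gate. Open sites were described by a rule set after the files had been seen. Counters and intervals were tested on simulated data. Python 3.11.15, numpy 2.4.6, scipy 1.17.1 and scikit-learn 1.9.0 were used. The authors' scRNA-seq data and cell labels were not used here.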

Additional observations from a re-analysis of the deposited data

Results flagged for a closer look

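Kcnj10 had stroke over sham ratios on opposite sides of 1 in 2 classes. It was 0.788 in astrocyte-like nuclei and 1.78 in oligodendrocyte-like nuclei, with counting intervals that did not hold 1 in either. The difference between the classes was not tested, as each condition was 1 library. In oligodendrocyte-like nuclei the value rested on 63 sham and 99 stroke fragments and on the gate. Over 12 alternatives, all chosen for this value after seeing the data, its log2 ratio ranged from -0.64 to 1.29, against 0.83 as reported, whereas that of astrocyte-like nuclei ranged from -0.43 to -0.17.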

How the results depend on the processing

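No paired analysis was possible because sham and stroke had 1 library each, and for the same reason no replicate could be left out. In astrocyte-like nuclei no ratio of the 4 genes that was past 1.5-fold as reported changed its direction. The log2 values that moved beyond their own counting interval follow. Those of Slc12a2 in stroke over sham, from -0.51 to -0.07, did not. With promoter windows in place of gene bodies, which for Aqp4 lie at its closed outer start, stroke over sham was -1.65 for Aqp4, from 8 and 4 fragments, and -0.77 for Slc4a4. Astrocyte-like over other gated nuclei in sham and stroke was then 3.50 and 0.55 for Aqp4, 3.42 and 2.72 for Kcnj10, 3.14 and 2.34 for Slc4a4 and 0.55 and 0.39 for Slc12a2, and 0 of 25 listed genes were higher and 4 lower, against 5.18% and 9.04% of all genes. Scaled to promoter fragments, stroke over sham was -0.17 for Kcnj10 and 0.18 for Slc4a4. Astrocyte-like over others was 3.56 and 3.02 for Aqp4, 2.59 and 1.99 for Kcnj10, 0.38 and 0.78 for Slc4a4 and -0.50 and -0.68 for Slc12a2, with 4 listed genes higher and 0 lower, against 14.8% and 2.70% of all genes. Over all called barcodes, astrocyte-like over others in stroke was 2.58 for Kcnj10 and 1.42 for Slc4a4, that of Slc4a4 in sham was 1.01, and astrocyte-like nuclei were 5.15% of stroke. With the study's limits on fragments in peaks they were 3.88% of sham, and 1 listed gene was higher.

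With the odd-numbered markers, astrocyte-like over others in sham was 3.72 for Aqp4 and 2.90 for Kcnj10, that of Slc4a4 in stroke was 1.42, its stroke over sham was 0.20, astrocyte-like nuclei were 2.46% and 7.44%, and 1 listed gene was higher and 3 lower. With the even-numbered markers, Slc4a4 had 0.72 and 1.09 over others, the shares were 5.21% and 7.60%, and 0 listed genes were higher and 2 lower. A stricter enrichment gave 0.70 for Slc4a4 over others in sham, 6.91% of stroke nuclei and 1 listed gene higher. Keeping nuclei that passed more than 1 gate gave 5.59% and 10.7% and 0 listed genes lower. Thinned to 5000 fragments, Slc4a4 had 0.98 over others in sham, 3.56% of sham nuclei were astrocyte-like, and 4 of 39 listed genes were higher, against 8.91% of all genes. In the other settings named here, between 3.09% and 10.5% of all genes were higher and between 0.846% and 8.10% lower. At 2-fold, 0 listed genes were higher and 0 lower, and with at least 200 fragments 0 of 34 were lower. Of alternatives chosen after seeing the data, a gate on each nucleus's own fragments gave 3.13 for Aqp4 in stroke, 2.86 and 2.20 for Kcnj10 and 1.39 for Slc4a4 in stroke over others, 0.18 for Slc4a4 in stroke over sham, 7.02% of stroke nuclei and 3 listed genes lower, and components 2 to 10 gave 0 listed genes higher. Kcnj10 in oligodendrocyte-like nuclei, at 0.83 as reported, moved to 0.08 with the stricter enrichment and to 0.32 with nuclei of more than 1 gate kept, and reversed to -0.64 with the odd-numbered markers and to -0.01 with the gate on each nucleus's own fragments. For these shifts the cause was not tested. Depth limited Aqp4 at single sites and every value in myeloid-like and endothelial-like nuclei of sham.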
